A study of Homo sapiens with 4 samples.

Results

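Nesprins and plakins are giant proteins that tie the cytoskeleton to the nucleus and to cell junctions. Described here are the RNA immunoprecipitation (RIP) peaks of the RNA-binding protein IGF2BP3 on the mRNAs of 6 of them, SYNE1, SYNE2, DST, MACF1, PLEC and DSP. The genes were chosen by the number of peaks on SYNE2 and DST in these same lists, which is very high, so the high counts of these genes are what selected the set and not a finding about it. A peak was taken as a member when its summit, the base of highest signal, lay in an exon of one of these genes in GENCODE release 44. That gave 197 of 44622 peaks in replicate 1 and 208 of 42723 in replicate 2. Across the whole series, 8708 genes held a peak summit in an exon.

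The nesprins SYNE1 and SYNE2 sit in the outer nuclear membrane, where a short domain at their C-terminal end binds SUN proteins and a pair of calponin homology domains that bind actin lies at the far end of a long rod of spectrin repeats. DST (dystonin) and MACF1 are spectraplakins, which combine such a rod with binding sites for actin and microtubules, while an epithelial form of DST anchors keratin filaments to hemidesmosomes. PLEC (plectin) and DSP (desmoplakin) link intermediate filaments to hemidesmosomes and desmosomes, the junctions that hold epithelia to the matrix and epithelial cells to each other. IGF2BP3 belongs to a family of proteins that bind mRNAs through KH and RRM domains, and it is known as a reader of the RNA mark N6-methyladenosine, which is often found in a GGAC sequence.

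The series consisted of 4 samples of OE-19, an established line of adenocarcinoma of the esophagogastric junction, for which the labels name no treatment or genetic change. Of these, 2 were replicates of RIP with an anti-IGF2BP3 antibody and 2 were replicates of input. The labels state that the cells were fixed by UV, a step that the RIP method of the study does not mention. There was a separate list of peaks for each RIP replicate, and the input was not analysed here. Depth is unknown, because the lists hold peaks and not read counts, and no RNA level stands beside a peak, so little IGF2BP3 on an mRNA and little of that mRNA in the cells cannot be told apart. A list holds only peaks with an uncorrected p of at most 0.01, and no test was run on the members, since the lists that chose them are the only data on them and there were 2 replicates.

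The strongest pairs of overlapping peaks on these mRNAs all lay in coding sequence (CDS). The sequences below are the 60 bases of mRNA around the replicate 1 summit of the pair with the highest mean fold enrichment in SYNE2, DST and MACF1, and of the only other pair with a q of at most 0.05 in both replicates, in SYNE2. They are shown to give the sequence at these replicate 1 summits, 5′ to 3′ on the mRNA strand in GRCh38. The summit is at base 30, and capitals mark the words GGAC and CACA where they occur. The replicate 2 peak of the MACF1 pair (chr1:39479817-39479859) lies outside the window shown. The SYNE2 windows are at chr14:64186519-64186578 and chr14:64159345-64159404 on the plus strand, in exons 97 and 87 of 116. The DST window is at chr6:56493007-56493066 on the minus strand, in exon 84 of 104, and the MACF1 window is at chr1:39479934-39479993 on the plus strand, in exon 98, the fourth from the last.
SYNE2 exon 97: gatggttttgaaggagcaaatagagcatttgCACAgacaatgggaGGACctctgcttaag
SYNE2 exon 87: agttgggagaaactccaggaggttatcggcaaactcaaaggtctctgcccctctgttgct
DST exon 84: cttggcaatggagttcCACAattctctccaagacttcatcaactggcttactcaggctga
MACF1 exon 98: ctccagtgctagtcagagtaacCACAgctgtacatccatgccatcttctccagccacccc

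Of these windows, the one in SYNE2 exon 97 held both words, those in DST exon 84 and MACF1 exon 98 held CACA alone, and the one in SYNE2 exon 87 held neither. The fold enrichment, the ratio of RIP pileup to local background that the authors' peak caller gave, was 6.42 in replicate 1 and 5.27 in replicate 2 at SYNE2 exon 97, with a q of 7.91e-06 and 0.00470. At DST exon 84 it was 5.88 and 5.80, with a q of 0.000948 and 0.00096, and the summits of the replicates were 7 nt apart. MACF1 exon 98 had folds of 5.81 and 3.95, and its q was 3.73e-05 in replicate 1 but 0.435 in replicate 2, with summits 130 nt apart. At SYNE2 exon 87 the folds were 5.65 and 4.97 and the q values 0.00356 and 0.000819.

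SYNE2 and SYNE1, the 2 giant nesprins, stood at opposite ends. SYNE2 (ENSG00000054654.20, chr14:63761899-64226433, plus strand) held 86 exonic peaks in replicate 1 and 92 in replicate 2, the highest mean count of 20033 protein-coding genes. SYNE1 (ENSG00000131018.25, chr6:152121687-152637801, minus strand) held 0 and 0, although its canonical mRNA, of 27708 nt, is longer than that of SYNE2, of 21822 nt. No peak summit lay in an intron of SYNE1 either. Whether SYNE1 is transcribed in OE-19 cells is not shown by these lists.

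On SYNE2, 84 of the 86 summits of replicate 1 and all 92 of replicate 2 were in the CDS. Its density was 4.05 and 4.44 CDS summits per kb of CDS, rank 17 among the 183 protein-coding genes with a CDS of at least 8616 nt, the length of that of DSP, the shortest here. The SYNE2 peaks had a median fold of 3.38 in replicate 1 and 3.39 in replicate 2, from 2.22 to 6.89 and from 2.06 to 6.29. The median of all exonic peaks was lower, at 2.93 in both replicates. Of the 86 and 92 SYNE2 peaks, 12 and 13 had a q of at most 0.05, beside 10.1% and 7.7% of all exonic peaks. A q of 1 was found for 44 and 49 of them, beside 60.9% and 66.0% of all exonic peaks. These differences were not tested.

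The peaks ran along the whole SYNE2 coding sequence. Split into 10 equal parts from the start codon, the CDS held 11, 9, 5, 6, 4, 10, 9, 9, 10 and 11 summits in replicate 1. In replicate 2 the same parts held 8, 11, 9, 6, 3, 7, 12, 12, 13 and 11. The fifth part had the fewest in both replicates. Most of that part belongs to exon 48, the longest of the mRNA at 2101 nt (chr14:64051557-64053657), which held 1 summit in each replicate.

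DST (ENSG00000151914.22, chr6:56457987-56954830, minus strand) held 68 and 70 exonic peaks, and MACF1 (ENSG00000127603.32, chr1:39081316-39487177, plus strand) held 39 and 43. These spectraplakins have coding sequences of like length, 23457 and 22668 nt, so the density of CDS summits was higher on DST, at 2.86 and 2.77 per kb, than on MACF1, at 1.72 and 1.90 per kb. DST was chosen for its peak number and MACF1 was not, so this difference is a description and nothing is read from it. DST ranked 38 and MACF1 48 of the 183 long coding sequences by mean density. Median folds were close, 3.02 and 3.15 on DST against 2.99 and 3.04 on MACF1. On DST 4 and 8 peaks had a q of at most 0.05, on MACF1 3 and 3.

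Both spectraplakin mRNAs were nearly bare in the same stretch. Of 10 equal parts of the DST CDS, the fourth held 0 summits in both replicates and the fifth held 1 in each, and on MACF1 the fourth held 0 and the fifth 2. The longest exon of each mRNA lies across this stretch. DST exon 40 (chr6:56603837-56609344) has 5508 nt and held 1 and 0 summits, and MACF1 exon 37 (chr1:39331203-39336653) has 5451 nt and held 0 and 0. Both exons are optional in the annotation: 3 of 10 coding transcripts of DST that span exon 40 contain it, and 3 of 8 of MACF1 that span exon 37. How often these exons were present in the RNA of these cells was not tested. The other long internal exon, of 1472 nt in each gene, is in all 8 spanning transcripts of DST and all 6 of MACF1, and held 2 and 2 summits on DST (exon 61) against 0 and 1 on MACF1 (exon 58).

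**Figure D1:**
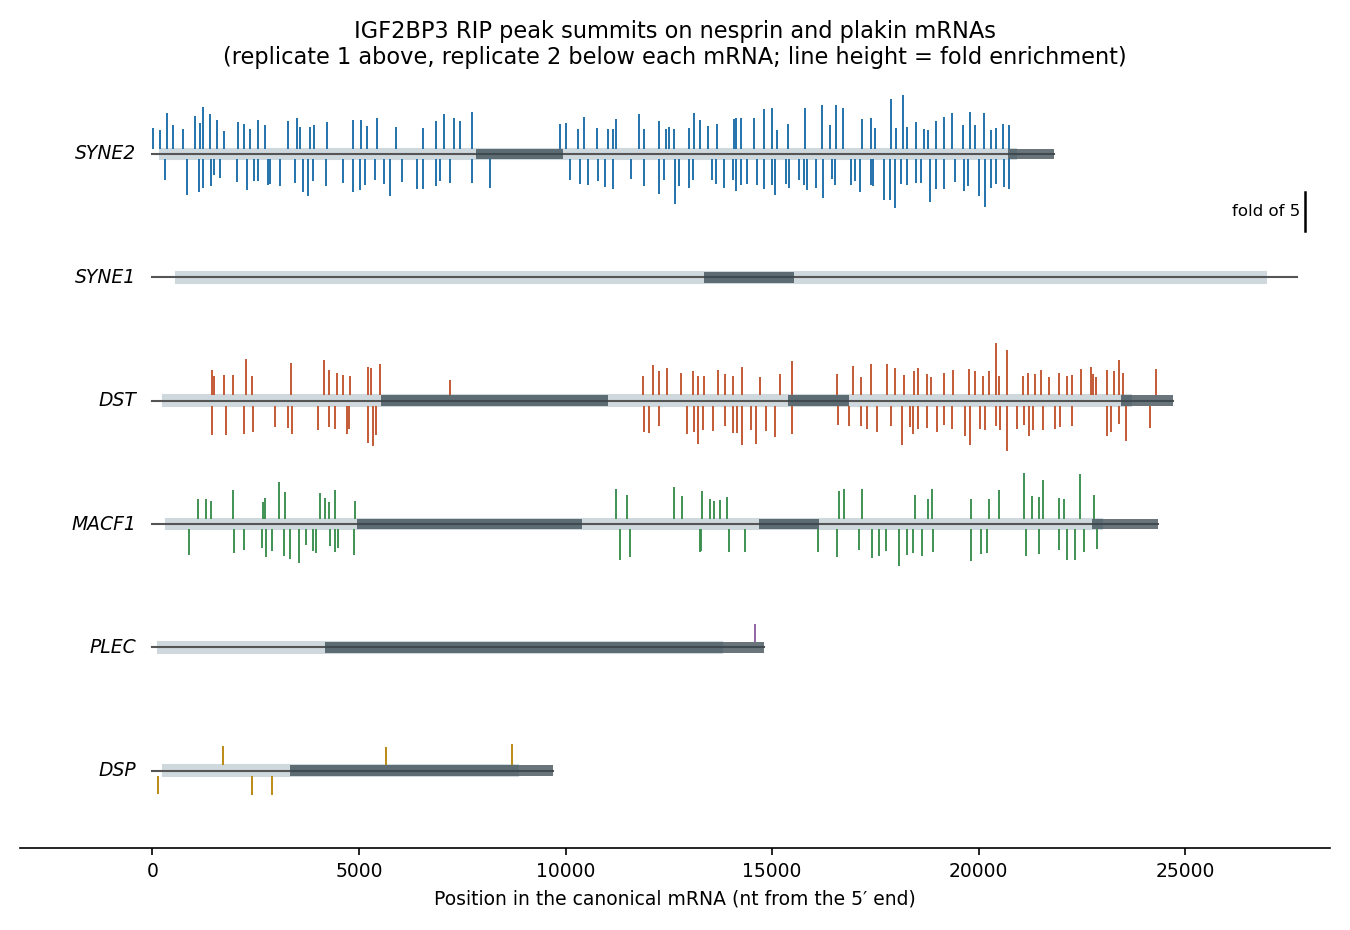
Peak summits along the canonical mRNA of each gene, in nt from the 5′ end, replicate 1 above and replicate 2 below, with line height giving fold enrichment. Light bars mark the CDS and dark bars exons of 1000 nt or more. SYNE2, DST and MACF1 are lined with summits, with at most 1 per replicate in the longest exon of each. SYNE1 has none, and PLEC and DSP have few.

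PLEC and DSP, the links to intermediate filaments, had few peaks, and none of them recurred. PLEC (ENSG00000178209.17, chr8:143915153-143976734, minus strand) held 1 peak in replicate 1, in its 3′ UTR with a fold of 2.27 and a q of 1, and 0 in replicate 2. DSP (ENSG00000096696.16, chr6:7541338-7586714, plus strand) held 3 in each replicate, with folds from 2.36 to 2.79 and from 2.30 to 2.45. No DSP peak of one replicate overlapped a peak of the other, and all had a q of 1. In replicate 1 the DSP summits were in exons 12, 24 and 24, and in replicate 2 in exons 1, 16 and 19 of 24. The density on DSP was 0.348 and 0.232 CDS summits per kb, rank 80 of 183, whereas SYNE1 and PLEC, with no CDS summit, shared rank 99.

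An exonic peak in both replicates was present on 4 of the 6 genes (SYNE2, DST, MACF1 and DSP), beside 28% of the 20033 protein-coding genes and 49.7% of the 183 with a CDS of at least 8616 nt. Nothing is read from that count, since peak numbers chose the genes. The 177 long coding sequences without the members had a median density of 0.0701 and 0 CDS summits per kb and an upper quartile of 1.91 and 1.96, with 5.75 and 5.36 as the highest. SYNE2 and DST lay above that upper quartile in both replicates and MACF1 below it in both.

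**Figure D2:**
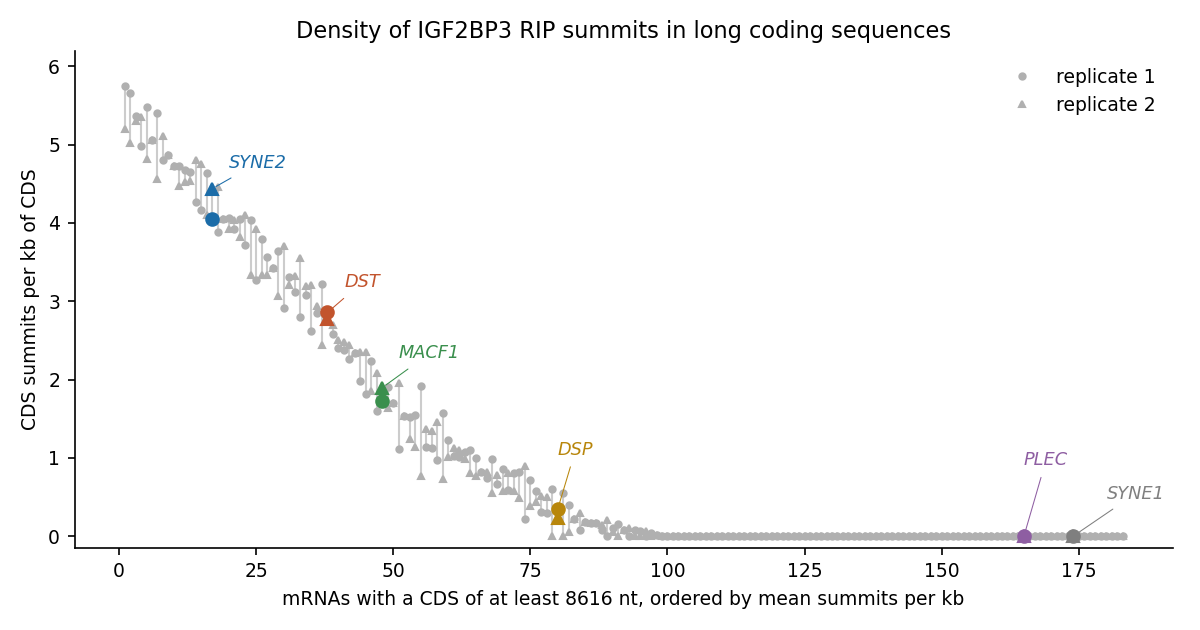
CDS summits per kb of CDS in the 183 protein-coding genes with a CDS of at least 8616 nt, ordered by mean density, with circles for replicate 1 and triangles for replicate 2. SYNE2 is 17th, DST 38th, MACF1 48th and DSP 80th, while SYNE1 and PLEC lie at 0 with the genes at the right.

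Summits in short exons came 1 to an exon. No exon of SYNE2 or MACF1 held more than 1 summit in a replicate, and DST had at most 2, in exons of more than 300 nt. Elsewhere in the lists, of coding exons under 300 nt with a summit in mRNAs other than these, 1 of 25436 in replicate 1 and 3 of 25326 in replicate 2 held 2 or more. A peak count on an mRNA of short exons was thus close to a count of the exons that had a peak. SYNE2 has 115 coding exons, DST 104 and MACF1 slightly fewer, with a median exon length of 156, 155 and 155 nt. SYNE1 has more, 144, and held no peak, and the part of exon number in the peak counts was not tested.

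On SYNE2, 71 of 115 coding exons (61.7%) held a summit in both replicates, 35 (30.4%) in 1 and 9 (7.83%) in neither. An unbroken run of 46 exons, from exon 61 to exon 106, had a summit in at least 1 replicate, and no more than 2 neighbouring exons were empty. On DST 53 exons (51.0%) had a summit in both, 23 (22.1%) in 1 and 28 (26.9%) in neither, with a run of 31 exons from 45 to 75 and the first 9 exons empty. MACF1 was more thinly filled, with 22 exons (21.8%) in both, 38 (37.6%) in 1 and 41 (40.6%) in neither, and its first 6 exons empty. For all other mRNAs with an exonic peak in both replicates, 27.5% of 75615 coding exons had a summit in both, and for the 87 other long coding sequences among them the share was 33.0% of 4914. SYNE2 and DST were above these shares and MACF1 was below them, which for SYNE2 and DST follows from how they were chosen.

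**Figure D3:**
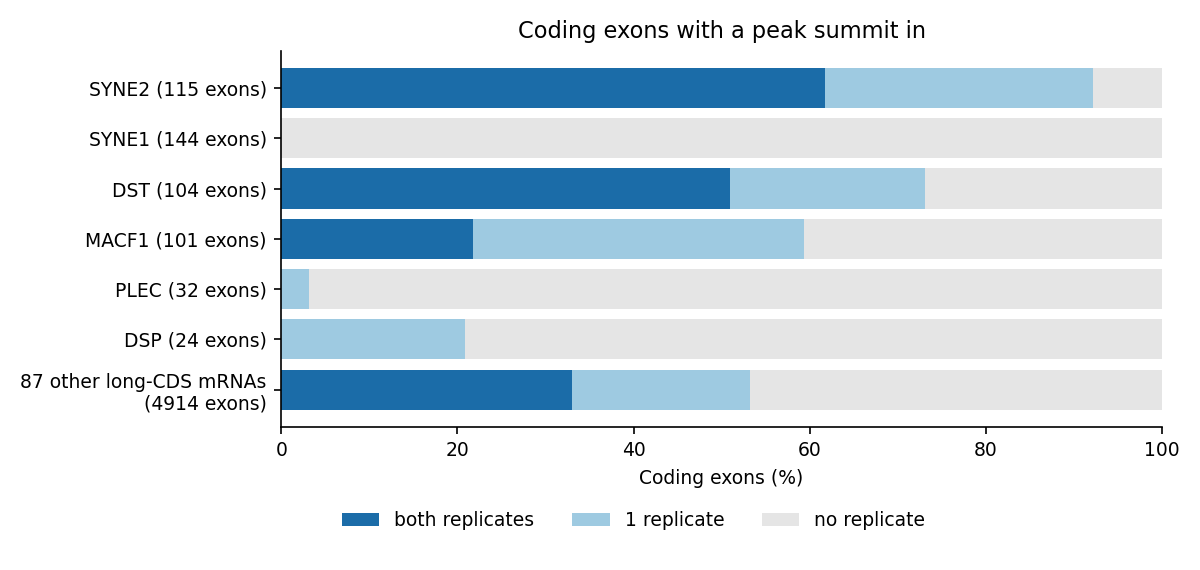
Share of coding exons with a peak summit in both replicates, in 1 or in none, for each gene and for the 87 other mRNAs with a CDS of at least 8616 nt and an exonic peak in both replicates. The share in both is 61.7% on SYNE2, 51.0% on DST, 21.8% on MACF1 and 33.0% on the other long mRNAs.

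Empty exons were shorter than occupied ones. The median length on SYNE2 was 162 nt for exons with a summit in both replicates, 145 nt for those with 1 and 93 nt for those with none. On DST these medians were 170, 144 and 106 nt. Length went less evenly with occupancy on MACF1, at 156, 163.5 and 130 nt. On SYNE2, exons with a summit in both replicates had a median GC of 42.7% and empty ones 36.2%. These GC medians were closer on DST, at 42.5% and 40.9%, and on MACF1, at 47.4% and 46.8%. The part of length and of GC in these differences was not tested.

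Across exon classes, the shortest exons carried the highest density of CDS summits. In exons under 300 nt the density was 4.63 and 5.11 per kb on SYNE2, 4.10 and 4.10 on DST and 2.70 and 2.84 on MACF1. In exons of 1000 nt or more it was 0.866 and 0.866 on SYNE2, 0.552 and 0.414 on DST and 0.139 and 0.279 on MACF1. The order of the classes was the same on all 3 mRNAs in both replicates. It was also that of the 87 other long coding sequences, with 2.90 and 2.90 per kb in the shortest class, 1.17 and 1.17 in exons of 300 to under 1000 nt and 0.588 and 0.504 in the longest. Across all other mRNAs with peaks in both replicates the shortest class had 3.01 and 3.0 per kb and the longest 1.01 and 0.918. Long exons make up 70.4% of the PLEC CDS and 64.2% of the DSP CDS, but 31.7% on MACF1, 30.9% on DST and 11.1% on SYNE2. PLEC and DSP were low in short exons too, PLEC at 0 and 0 per kb in exons under 300 nt and DSP at 0.343 and 0.686. The GC content of the coding sequence was 66.9% on PLEC, 48.3% on DSP, 46.7% on SYNE1, 46.5% on MACF1, 42.7% on SYNE2 and 41.6% on DST, and its part in the peak numbers was not tested.

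**Figure D4:**
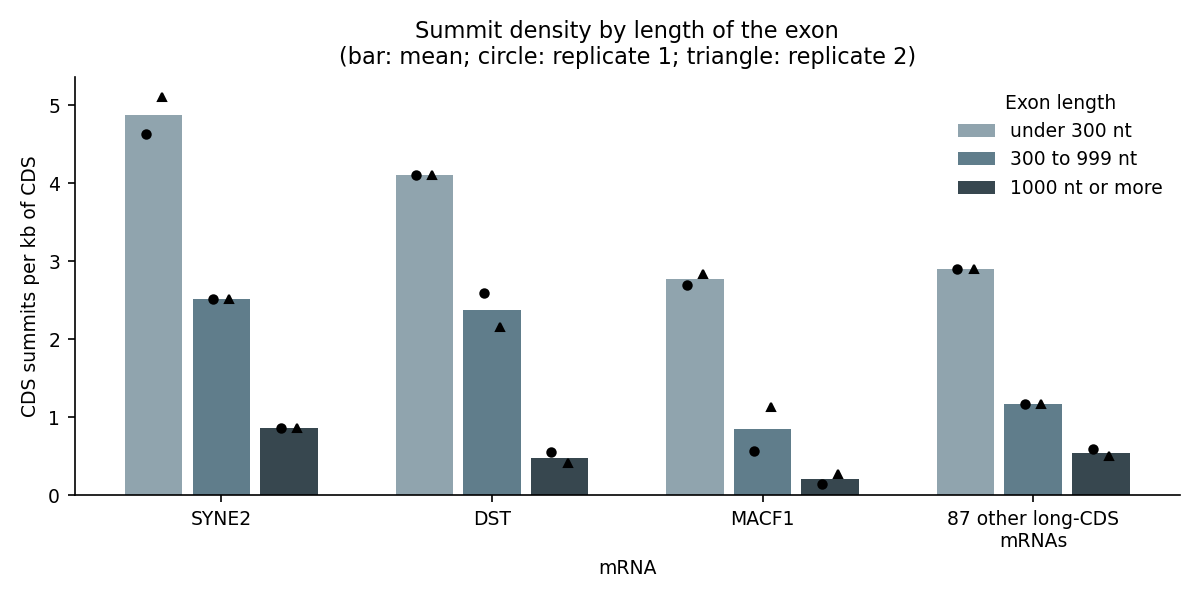
CDS summits per kb of CDS in exons under 300 nt, of 300 to under 1000 nt and of 1000 nt or more on SYNE2, DST, MACF1 and the 87 other long coding sequences with an exonic peak in both replicates. Bars are means of the replicates, circles replicate 1 and triangles replicate 2; on each mRNA the density falls from the shortest class to the longest, on SYNE2 from 4.63 and 5.11 to 0.866 and 0.866.

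Nearly all summits were in coding sequence. Over the 6 genes, 193 of 197 mRNA summits (98.0%) in replicate 1 and 202 of 204 (99%) in replicate 2 were in the CDS, which makes up 93.8% of the length of these mRNAs. Over all mRNAs with a summit the share was 77.2% and 78.7%, where the CDS is 44.8% and 44.9% of the length. The 3′ UTRs held 2 and 1 summits and the 5′ UTRs 2 and 1. On these mRNAs the room for a UTR summit was small, and the share in the CDS was close to the share of length.

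At the 3′ end, each of the 3 mRNAs with many peaks had 1 summit in the coding part of its last exon in each replicate, and these overlapped between replicates. On SYNE2 exon 116 the summits lay 185 and 175 nt before the end of the stop codon, with folds of 3.09 and 3.8. On DST exon 104 they lay 205 and 122 nt before it, with folds of 2.93 and 4.60. The MACF1 summits in the last exon were 215 and 133 nt before it, with folds of 3.0 and 2.50. These last exons code for the C-terminal ends, which on SYNE2 carry the nuclear membrane anchor. None of these peaks had a q of at most 0.05, the lowest being 0.0547 on DST in replicate 2.

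Overlap with a peak of the other replicate, by at least 1 bp, was found for 147 of the 197 member peaks of replicate 1 (74.6%) and 148 of the 208 of replicate 2 (71.2%). Among all exonic peaks the percentages were 60.8 and 64.6. By gene they were 80.2% and 76.1% on SYNE2, 82.4% and 80.0% on DST, and 56.4% and 51.2% on MACF1, and on the last the shares were below those of all exonic peaks. A peak of either replicate covered 67.2% of the SYNE2 mRNA, 49.0% of the DST mRNA and 28.8% of the MACF1 mRNA, and the part of this coverage in the overlap was not tested. Of the 147 overlapping pairs, 145 had both summits in the same exon and 102 (69.4%) had them within 50 nt. The median distance between the summits of a pair was 22 nt on SYNE2, 23 nt on DST and 26.5 nt on MACF1.

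On SYNE2 the height of a peak in one replicate said little about its height in the other. Across the 69 overlapping pairs of SYNE2, Pearson's r of log2 fold was -0.02 and Spearman's rho -0.05. Across 56 pairs of DST they were 0.19 and 0.22, and across 22 pairs of MACF1 0.37 and 0.21. Over the 26850 other exonic pairs of the lists r was 0.31 and rho 0.29. These are descriptions across peaks of the same 2 libraries, which share their mRNA and are not independent. The other pairs span many genes, while each member value is within 1 gene. Only peaks with a p of at most 0.01 in both lists could be paired, and the part of this limit in the values was not tested. The highest member peak, on SYNE2 exon 99 in replicate 1 (chr14:64190088-64190217), had a fold of 6.89 and a q of 1.18e-06, and its replicate 2 partner did not reach a q of 0.05.

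**Figure D5:**
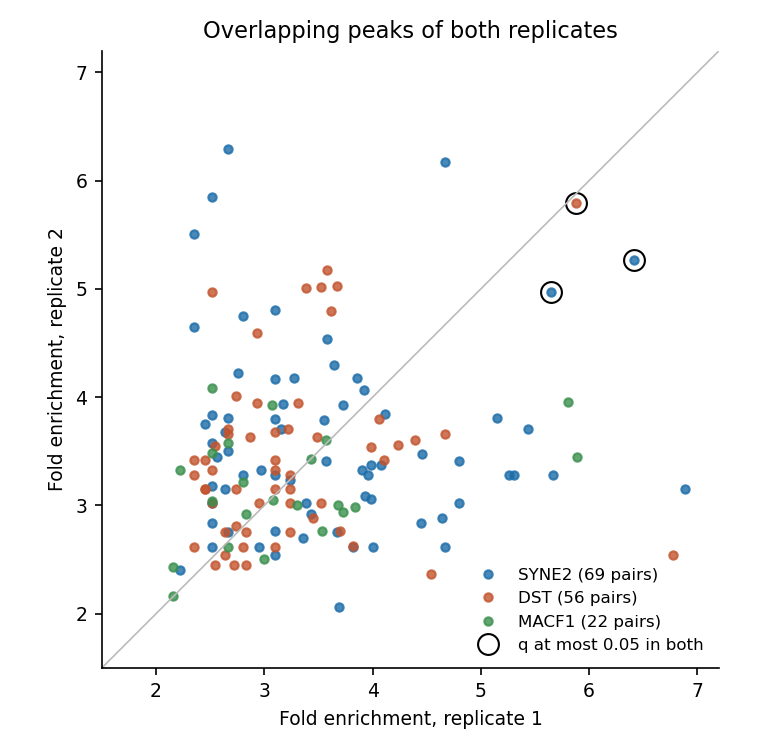
Fold enrichment in replicate 1 and replicate 2 of the 147 overlapping pairs on SYNE2, DST and MACF1, with circles around the 3 pairs that had a q of at most 0.05 in both replicates and a line of equal folds. The SYNE2 points do not follow the line (Pearson's r of log2 fold -0.02).

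In replicate 1, 19 member peaks (9.64%) had a q of at most 0.05, and in replicate 2, 24 (11.5%) did, beside 10.1% and 7.7% of all exonic peaks. These shares were near the background in replicate 1 and above it in replicate 2. All of these peaks were in coding exons under 300 nt, where most member peaks lay. Of all 197 and 208 member peaks, 172 and 182 had a CDS summit in such exons of SYNE2, DST and MACF1. Of the 19 and 24, 16 and 20 overlapped a peak of the other replicate. In 3 pairs both peaks had a q of at most 0.05, on SYNE2 exons 87 and 97 and on DST exon 84. The same counts over all exonic peaks are not given here, so nothing particular to the members is read from them. On SYNE2 the highest folds of replicate 2 were in exon 98 (fold 6.29, q 6.32e-05) and exon 111 (fold 6.17, q 0.000117), both 3′ of exon 97. Exon 64 (chr14:64101920-64102042) had the lowest q on SYNE2 in replicate 2, at 2.57e-06 with a fold of 5.85. On DST the highest peak was in exon 82 in replicate 1 (chr6:56497372-56497483), with a fold of 6.77 and a q of 0.000173. MACF1 had its highest peak in exon 88 in replicate 1 (chr1:39453723-39453864), with a fold of 5.89 and a q of 0.00102, and in replicate 2 in exon 69 (chr1:39434543-39434583), with a fold of 4.75 and a q of 0.0294.

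Median fold over the member peaks was 3.09 in replicate 1 (interquartile range 2.64 to 3.81) and 3.28 in replicate 2 (2.85 to 3.73). All exonic peaks had a median of 2.93 in both, with interquartile ranges of 2.56 to 3.53 and 2.53 to 3.48. The ranges overlapped widely. Highest folds were 6.89 and 6.29 on the members and 11.7 and 10.2 among all exonic peaks, which are far more in number and include the members. Median width was 113 and 118.5 nt against 115 and 109 nt, and 129 (65.5%) and 126 (61.8%) member peaks on the mRNAs lay wholly within 1 exon, against 65.7% and 66.6% for all mRNA summits.

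The words searched on the mRNA strand were GGAC, TGGAC, which contains GGAC, and CACA, in the window from 50 nt before to 50 nt after each summit. GGAC was present in 25% of member windows in replicate 1 and 32.4% in replicate 2, beside 32.0% and 32.0% of all other mRNA summit windows. In the 252 windows of SYNE2, DST and MACF1 that hold no part of a peak it was present in 25.8%. The member windows were thus not set apart by this word in both replicates. By gene, GGAC was in 25.9% and 33.7% of SYNE2 summit windows against 30% of those without a peak. On MACF1 it was in 25.6% and 46.5% against 28.0%, and on DST in 22.1% and 21.2% against 21.1%. On SYNE2 and MACF1 replicate 1 was thus below the windows without a peak and replicate 2 above them. TGGAC was in 12.8% and 14.2% of member windows, 12.9% and 12.9% of the others and 11.1% of the windows without a peak. By gene, it was in 14.1% and 16.3% of SYNE2 summit windows against 6.67% of those without a peak. On MACF1 it was in 15.4% and 18.6% against 8.33%, but on DST in 10.3% and 9.09% against 16.7%. Of the 30 SYNE2 windows without a peak, 2 held the word, and these differences were not tested. CACA was in 35.2% and 37.3% of member windows, against 38.9% and 38.2% of the others and 36.1% of the windows without a peak. On DST, CACA was in 41.2% and 51.5% of windows around summits and in 41.1% of those without a peak. On DST replicate 1 was thus level with the windows without a peak, and only replicate 2 was above them. On SYNE2 CACA was in 34.1% and 32.6% of summit windows against 40% (12 of 30) without a peak. On MACF1 it was in 30.8% and 25.6% against 31.8%. Mean GC was 44.9% and 44.7% in the member windows, 49.1% and 48.7% in the others and 41.7% in the windows without a peak.

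DST and MACF1 arose from a common ancestor and still share much of their exon structure, so matching exons of both could be set side by side, an analysis chosen after the values had been seen. By equal length, order and an identity of at least 60%, 52 exon pairs were matched, with a median identity of 69.3%. A summit in both replicates was present in 23 of the DST exons and 10 of the MACF1 exons. In 3 pairs both exons had one, which is 13% of the DST exons and 30.0% of the MACF1 exons. In 11 pairs the DST exon had a summit in both replicates and the MACF1 exon in neither, and in 3 pairs the reverse. Of all 52 pairs, the MACF1 exon had a summit in neither replicate in 24 and the DST exon in 15. DST was chosen for its peak number and MACF1 was not, so nothing is read from the direction of these differences. Whether the counts for matched exons differ from those for unmatched exons was not tested. Median GC of the matched exons was 42.5% on DST and 47.3% on MACF1. The RNA level of each gene could not be read here, and its part in these differences was not tested.

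Partners of these proteins were counted from lists chosen for their roles. Of 12 genes of the LINC complex and nuclear envelope, to which the nesprins attach, 6 had exonic peaks in both replicates and 6 had none, beside 28% of all protein-coding genes with a peak in both. Counts of so few genes, in lists that differ in mRNA length and were picked with earlier results known, are given as descriptions. SUN1, which binds the nesprins from inside the envelope, held 9 and 12 peaks, TMPO, a lamina-associated protein, 6 and 6, and TOR1AIP1, an activator of torsin A, 6 and 4. Lamins A and C (LMNA) and emerin (EMD) had 0 and 0. Among 7 genes of the spectrin superfamily 5 had a peak in both. UTRN (utrophin), which links actin to the membrane through a rod of spectrin repeats like those of the nesprins, led with 44 and 48 peaks, 9 and 7 of them with a q of at most 0.05. Its density of 3.88 and 4.47 CDS summits per kb was close to that of SYNE2. Its relative DMD (dystrophin) had 0 and 0, as SYNE1 did beside SYNE2. The spectrins were lower, with 7 and 8 peaks on SPTBN1 and 6 and 7 on SPTAN1.

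Microtubule partners of the spectraplakins had a peak in both replicates in 7 of 8 genes, beside the same 28% of protein-coding genes. CLASP1 and CLASP2, plus-end proteins that stabilise microtubules and bind MACF1, held 28 and 28 and 16 and 15 peaks. Their densities were 4.91 and 5.34 and 3.54 and 3.10 CDS summits per kb, above those of DST and MACF1, and both genes had a peak with a q of at most 0.05 in each replicate. DYNC1H1, the dynein heavy chain, held 12 and 8 peaks on a CDS of 13941 nt, a density of 0.861 and 0.574 per kb.

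Junction genes around DSP and PLEC were counted in the same way. In the desmosome list 4 of 11 genes had a peak in both replicates, 1 in a single replicate and 6 in neither, beside 28% of protein-coding genes with a peak in both. DSC2, a desmosomal cadherin, held 17 and 17 peaks, PKP2 (plakophilin) 10 and 7 and PPL (periplakin, a smaller plakin) 9 and 8, while JUP (plakoglobin), EVPL (envoplakin) and PKP3 held 0 and 0. Of 7 hemidesmosome genes 4 had a peak in both. COL17A1, the transmembrane collagen of hemidesmosomes, held 13 and 14, LAMA3 12 and 9 and ITGB4, the integrin that binds plectin, 2 and 2. The 8 keratin and vimentin genes, whose filaments DSP, PLEC and epithelial DST anchor, had 0 peaks in both replicates, and whether their mRNAs were abundant in these cells cannot be read from the lists.

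High peak numbers were also found on other families of giant mRNAs, which were picked with earlier results known. All 8 giant E3 ubiquitin ligase genes had peaks in both replicates, 434 and 423 in all, with a median density of 3.85 and 3.67 CDS summits per kb. All 8 bridge-like lipid transfer protein genes did too, 346 and 363 in all, with a median density of 4.25 and 4.44. UBR4, with 88 and 79 peaks, BLTP1, with 83 and 83, and BIRC6, with 72 and 71, held counts near those of SYNE2 and DST. SYNE2 was near the median density of both families, DST and MACF1 were below both, and no difference between families was tested. Every gene of these families thus had a peak in both replicates, beside 28% of all protein-coding genes. Among the nesprins and plakins SYNE1 held none and PLEC 1 and 0. Nothing is read from this contrast, since the families were picked with earlier results known.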

How the data were processed

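RNA from 2 IGF2BP3 RIP replicates of OE-19 cells was analysed from the deposited peak lists, 1 list per replicate. Read depth was unknown, and intervals for counting error could not be computed. The study's methods give Tophat2 and MACS2 at default settings on hg38, whereas the submitters' processing notes name fastp, HISAT2 and MACS2, with no versions. The library used as the caller's control is not given in the sources used here. The deposited fold is a ratio of RIP pileup to local background, the deposited values of −log10 p and −log10 q belong to the summit, and the deposited score follows from the −log10 p. Start, end and summit offset are also as the authors deposited them. The smallest −log10 p was 2.0003 and 2.00226, which goes with a limit of 0.01 on the p-value and not with the caller's default limit on q.

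Summits were assigned to GENCODE 44 exons in GRCh38 without regard to strand, which the lists lack, although the kit was directional. All 24 chromosomes matched, and 13 and 12 peaks on scaffolds were left out. No member summit lay in an exon of another gene. Positions refer to the canonical coding transcript. The assignment was tested on simulated summits. Python 3.11.15, pandas 2.3.3, numpy 2.4.6, scipy 1.17.1 and matplotlib 3.10.9 were used. Replicate values are given side by side; the study calls its replicates biological, and nothing in the labels says that they came from separate cultures.

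Members, gene lists and alternatives were chosen with earlier results of these data known. Named were all members, for each the overlapping pair with the highest mean fold and every pair with a q of at most 0.05 in both replicates, and of each partner list the 3 genes with the most peaks by the mean and those with a q of at most 0.05 in both. Other peaks and genes named in the text were chosen after their values were seen. Alternatives were limits on q and fold, other overlap and assignment rules, other transcripts and leaving out a replicate. Input was not analysed here, and 1 gene that the rule names is not reported here.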

Additional observations from a re-analysis of the deposited data

Results flagged for a closer look

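Outside the exons, in data the comparisons did not use, 5 peaks of replicate 1 had their summit in an intron of a member, 3 on SYNE2, 1 on DST and 1 on MACF1, against 1 in replicate 2, on SYNE2. Of the 5, 3 lay 11 or 12 nt from an exon. The replicate 2 peak (chr14:63853592-63853628, fold 3.38) overlapped one of replicate 1 (fold 3.33) that lay 461 nt from the nearest exon. All had a q of 1. The input was not analysed here, and the cause was not tested.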

How the results depend on the processing

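As means over the replicates, the members held 202.5 exonic peaks, of which 72.9% overlapped the other replicate, with a median fold of 3.19, 10.6% with a q of at most 0.05, 98.5% of mRNA summits in the CDS and 1.71 CDS summits per kb. Values moved with every stricter limit, and at these limits no values over all exonic peaks stand beside them. For limits on q or fold both lists were cut first, which was not done for the 72.9%. The shares overlapping at these limits are thus a different measure. Against the uncut list of the other replicate, 16 of 19 and 20 of 24 peaks overlapped at the q limit of 0.05. With both lists cut at that limit, the values were 21.5 peaks, 14.1%, a median fold of 5.14, 100% in the CDS and 0.186 per kb. At a −log10 q of at least 5 they were 1.5 peaks, 0%, 6.25, 100% and 0.0130, all on SYNE2. At a fold of at least 5 they were 12.5 peaks, 16.2%, 5.46, 100% with a q of at most 0.05, 100% in the CDS and 0.108. The share overlapping was 51.6% with a reciprocal overlap of 50% and 51.9% with summits within 50 bp. Other assignment and transcript rules, and leaving out either replicate (197 to 208 peaks), moved none of these values by more than the spread of the replicates or, for the number of peaks, 1.5 times. By mean peak number SYNE2, DST and MACF1 stood at 12.5, 6 and 3 at a q of at most 0.05 and at 7.5, 3.5 and 1.5 at a fold of at least 5, where replicate 1 had 2 on DST and 3 on MACF1. At a −log10 q of at least 5 DST and MACF1 both had 0. No paired analysis was possible because the results are counts and shares that come from no test, and peak lists of 1 group only were analysed here. Depth, input values and RNA levels, which these lists lack, limit every count, and a gene with few peaks may have few reads.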

Other observations

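In replicate 2, 4 DST summits lay in exons outside the canonical transcript, in the transcripts DST-237, DST-203, DST-205 and DST-220, with folds from 1.88 to 3.15 and a q of 1. No such summit was present in replicate 1.

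Across the 177 other long coding sequences, Spearman's rho with mean density was -0.22 for GC content, 0.01 for the share of CDS in exons of 1000 nt or more and -0.16 for CDS length, given as descriptions across genes of the same libraries. In those with a GC content under 45.0% the median density was 0.983 and 0.546 CDS summits per kb, and it was 0 in both replicates in those from 45.0% to 51.9% and in those above.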
